A study of Mus musculus with 9 samples.

Results

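Potassium channel genes were followed in brain libraries of N171-82Q Huntington's disease (HD) mice and of wild-type (WT) mice. They were the genes whose GENCODE M21 symbol begins with Kcn, letters and a digit, other than Kcnj10, Kcnj13 and Kcne2, and whose value was at least 10 in 3 or more of the 9 libraries. The name pattern matched 93 genes, 3 of these were left out by name and 11 fell under the minimum, which left 79 of the 15411 genes tested. The 79 comprised 37 voltage-gated pore subunits, 9 auxiliary subunits of such channels (Kcnab, Kcne and Kcnip genes), 11 inward rectifiers (Kcnj), 11 two-pore channels (Kcnk) and 11 genes of calcium- and sodium-activated channels (Kcnma, Kcnmb, Kcnn, Kcnt and Kcnu). The 11 genes under the minimum were Kcna7, Kcna10, Kcne1, Kcne3, Kcnj1, Kcnj15, Kcnk15, Kcnk16, Kcnk18, Kcnmb3 and Kcnv2, and they entered no comparison.

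The HD-WNT5B group, of N171-82Q mice, had received pAAV-GFAP(pro)-WNT5B-P2A-mCherry, and the HD-Control group, of N171-82Q mice, and the WT-Control group, of wild-type mice, had received pAAV-GFAP(pro)-Control-mCherry (n = 3 libraries each). N171-82Q mice carry an amino-terminal fragment of human huntingtin with an expanded glutamine tract behind the prion protein promoter. The GFAP promoter drives a viral gene mainly in astrocytes, so that every group carried an mCherry virus aimed at these cells. The design text names the striatum as the site of the WNT5B injection, while the labels name the tissue as brain and give no region, age, sex or animal for a library. Nothing states that 1 group's libraries came from different mice, so p-values here measure the spread between these libraries, which may be technical. The comparison of HD-Control with WT-Control asks how the genotype differs under the same control virus, and that of HD-WNT5B with HD-Control asks how the WNT5B virus differs from the control virus in HD mice. These comparisons share the HD-Control libraries.

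A value is a normalised read count as deposited by the authors, with no division by gene length. A single read was worth 1.61 to 2.14 in HD-WNT5B, 0.616 to 0.797 in HD-Control and 0.704 to 0.808 in WT-Control libraries, estimated from the step between low values, which corresponds to 37.3 to 52.1, 69.8 to 90.6 and 67.8 to 77.8 M reads in genes (M, 1e6 reads). HD-WNT5B libraries stood apart from the rest. Among the 67 members averaging 100 or more, the median SD of log2 values within a group was 0.259 in HD-WNT5B, 0.033 in HD-Control and 0.0384 in WT-Control, and 14291 to 14588, 17223 to 17349 and 17027 to 17132 of all genes were above 0. Wnt5b had values of 184, 22.5 and 212 in HD-WNT5B and 63.8, 44.2 and 49.3 in HD-Control libraries and was not called between them (log2 change 0.88, SE 0.73, limma adjusted p = 0.30), so the 3 libraries labelled HD-WNT5B were not uniformly high for the gene the virus carries. Whether the deposited values count reads from the viral transgene is not given in the sources used here.

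Potassium channels let potassium leave or enter a cell and so set its resting potential, its threshold and the shape and rate of its action potentials. Voltage-gated channels open on depolarisation and repolarise the membrane, inward rectifiers hold the resting potential near the potassium equilibrium, two-pore channels carry a steady leak, and calcium- or sodium-activated channels open when these ions build up during firing. Striatal projection neurons are known for a very negative resting state held by inward rectifiers and for voltage-gated potassium currents that delay their first spike, while astrocytes take up the potassium that neurons release.

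Among members with a promoter in the RefSeq table (56 of 79, with 79 start sites, build GRCm38.p6), 4 are printed. Kcna6 was called in opposite directions in the 2 comparisons that share HD-Control and is shown beside Kcna5 of the same cluster on chromosome 6, and Kcnj4 and Kcnj2, which code for strong inward rectifiers of the same subfamily, had opposite orders over the groups. Each is the 250 bases before the RefSeq start site, 5′ to 3′ on the gene's strand, with the GC box GGGCGG or its complement CCGCCC in capitals. They are, in this order, chr6:126535556-126535805 (minus strand), chr6:126740675-126740924 (minus), chr15:79505242-79505491 (minus) and chr11:111065914-111066163 (plus).
Kcna5: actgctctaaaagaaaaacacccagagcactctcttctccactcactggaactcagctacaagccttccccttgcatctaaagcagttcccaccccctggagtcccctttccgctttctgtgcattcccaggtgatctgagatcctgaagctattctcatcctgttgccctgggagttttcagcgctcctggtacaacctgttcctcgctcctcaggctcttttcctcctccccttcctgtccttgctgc
Kcna6: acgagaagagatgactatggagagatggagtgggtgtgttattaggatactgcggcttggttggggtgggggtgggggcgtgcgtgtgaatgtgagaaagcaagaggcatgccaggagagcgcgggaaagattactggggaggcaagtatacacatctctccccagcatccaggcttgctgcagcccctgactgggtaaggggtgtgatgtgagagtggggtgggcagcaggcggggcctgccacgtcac
Kcnj4: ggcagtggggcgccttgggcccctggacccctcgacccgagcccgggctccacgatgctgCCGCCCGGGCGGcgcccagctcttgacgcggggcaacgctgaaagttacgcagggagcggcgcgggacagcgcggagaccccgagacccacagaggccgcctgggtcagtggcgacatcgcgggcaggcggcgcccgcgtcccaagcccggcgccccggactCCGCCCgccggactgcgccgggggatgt
Kcnj2: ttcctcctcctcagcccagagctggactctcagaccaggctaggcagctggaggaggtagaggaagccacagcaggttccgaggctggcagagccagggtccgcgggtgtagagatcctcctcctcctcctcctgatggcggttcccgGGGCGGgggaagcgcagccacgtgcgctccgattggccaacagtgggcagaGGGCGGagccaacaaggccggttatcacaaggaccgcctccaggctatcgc
The Kcna5 and Kcna6 windows held 0 GC boxes, Kcnj4 held 3 and Kcnj2 held 2, and their GC contents were 53.2%, 58.8%, 77.2% and 65.6%. Searched on both strands, the GC box occurred in 38 of 79 member windows (48.1%), against 32.74% of all 32851 windows of the same length. The cAMP response element TGACGTCA, which reads the same on both strands, occurred in 0 member windows, against 1.546% of all. A match describes the letters of the window and is not a measured site.

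In HD-Control against WT-Control libraries, potassium channel genes were called lower more often than higher. Of 79 members, 11 were higher (13.9%) and 37 lower (46.8%), and 31 were not called, with limma on log2 of the value plus 3 at a Benjamini-Hochberg adjusted p under 0.05 over all genes. Of all 15411 genes tested, 24.5% were called higher and 20.7% lower (45.1% in either direction). The median log2 change was -0.47 over the members and 0.02 over all genes tested. The count of 37 was 26 to 45, and that of 11 was 7 to 13, without any 1 library (7 without WT-Control 2, WT-Control 3, HD-Control 2 or HD-Control 3). The HD-Control libraries stood wholly above the WT-Control libraries for 13 members and wholly below them for 55, while 43.6% and 40.4% of all genes did so. In bulk tissue, fewer cells of a type and less RNA per cell cannot be told apart. Marker values moved with this result: in HD-Control against WT-Control, 6 of 8 pan-neuronal, 7 of 8 cortical excitatory neuron, 7 of 8 oligodendrocyte and 8 of 8 microglia markers were called lower, and of 14 striatal projection neuron markers 9 were lower and 4 higher. The summed pan-neuronal values were 290345 to 290848 in HD-Control and 348439 to 350428 in WT-Control libraries, the cortical excitatory values 11508 to 11618 in HD-Control and 25400 to 26214 in WT-Control, and the striatal values 527332 to 531896 in HD-Control and 605615 to 606149 in WT-Control, with no marker of these 5 lists at 0. Astrocyte markers were 1 higher and 6 lower of 8. Fewer were called in some other lists: 3 of 8 interneuron and 4 of 8 endothelial and mural markers were lower. Of 6 choroid plexus and ependyma markers, 0 were called. The part of these cell types in the result was not tested.

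In HD-WNT5B against HD-Control libraries, members were called in both directions about as often as other genes. There were 27 members higher (34.2%), 33 lower (41.8%) and 19 not called, beside 35.8% and 41.7% of all genes tested (77.5% in either direction). The HD-WNT5B libraries stood wholly above the HD-Control libraries for 27 members and wholly below them for 32, beside 36.2% and 42.5% of all genes. The median log2 change was -0.10 over the members and -0.23 over all genes. Scaling all libraries to equal totals moved the median of all genes to -0.76 and left 13 members higher and 45 lower. These were 16.5% and 57% of the members, beside 25.9% and 54.6% of all genes in that setting. Removing a trend on transcript length and GC content moved the counts the other way, to 30 higher and 24 lower (38% and 30.4%). Beside these, 40.9% and 32.4% of all genes were called, with medians of 0.11 over the members and 0.06 over all genes. Directions in this comparison thus depend on the processing. In HD-WNT5B against WT-Control, 18 members were higher (22.8%) and 44 lower (55.7%), beside 35.9% and 42.1% of all genes (77.9% in either direction), with medians of -0.74 over the members and -0.25 over all genes. These counts were 10 and 53 with equal totals (12.7% and 67.1%, beside 25.9% and 55.5% of all genes). With the trend removed they were 24 and 36 (30.4% and 45.6%, beside 41.1% and 33.5%). The HD-WNT5B and WT-Control libraries stood apart upwards for 18 members and downwards for 46, beside 36.2% and 43.2% of all genes. In HD-WNT5B against HD-Control, markers called higher and lower numbered 4 and 4 of 8 for pan-neuronal, 4 and 7 of 14 for striatal projection neuron, 2 and 2 of 8 for cortical excitatory, 3 and 4 of 8 for astrocyte and 5 and 3 of 8 for oligodendrocyte lists. The summed oligodendrocyte values were 758258 to 805273 in HD-WNT5B and 339894 to 342333 in HD-Control libraries, and the summed pan-neuronal values 221303 to 233404 in HD-WNT5B and 290345 to 290848 in HD-Control libraries. Of 6 oligodendrocyte precursor markers, 0 were higher and 5 lower in HD-Control against WT-Control and 3 were higher and 2 lower in HD-WNT5B against HD-Control, and of 5 thalamic and midbrain neuron markers tested, 1 was higher and 3 were lower in HD-Control against WT-Control and 3 were higher and 0 lower in HD-WNT5B against HD-Control. The part of these cell types in the members' values was not tested.

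**Figure D1:**
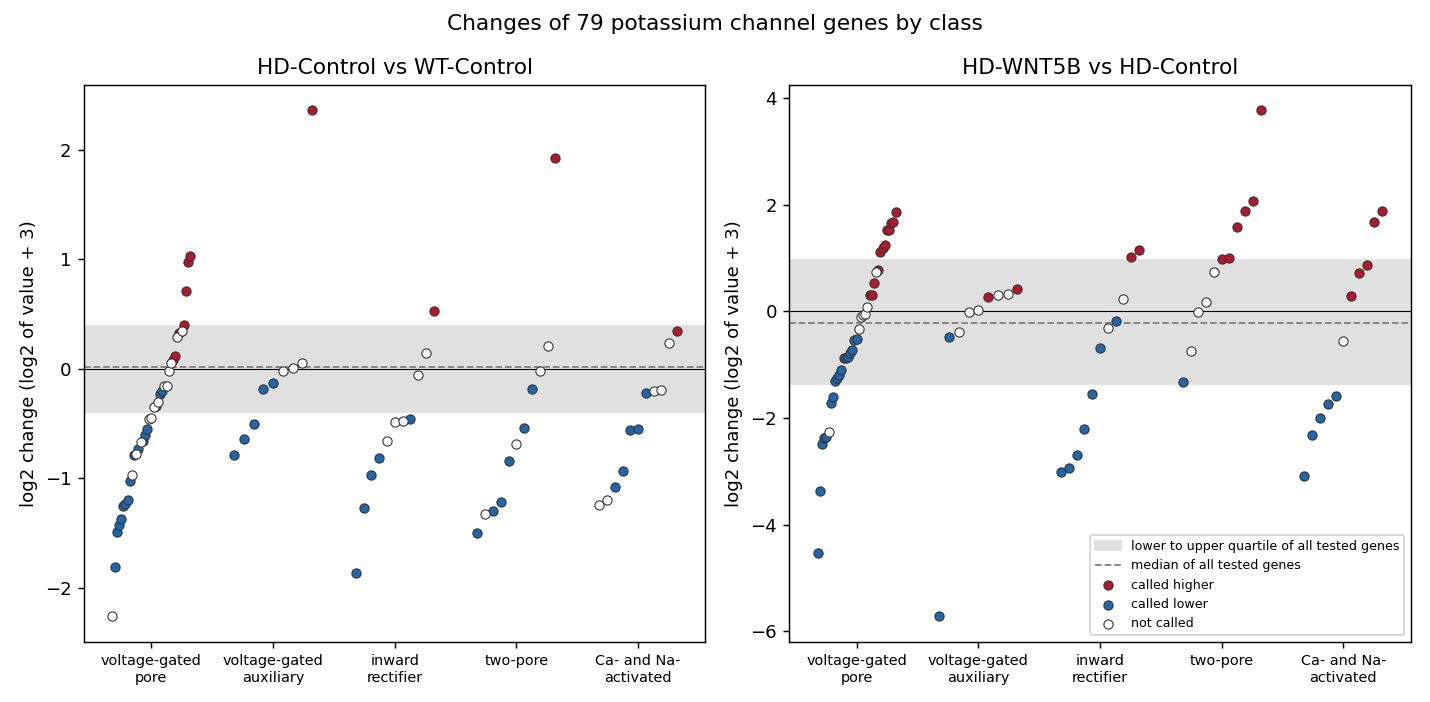
Each point is 1 of 79 potassium channel genes, placed by class on the horizontal axis and by its log2 change (log2 of value + 3) on the vertical axis, for HD-Control against WT-Control on the left and HD-WNT5B against HD-Control on the right. Red points were called higher, blue lower and open points not called. The grey band runs from the lower to the upper quartile of all tested genes and the dashed line is their median (0.02 and -0.23). On the left most points of each class lie under the median, and on the right the two-pore channels lie mostly above it.

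The comparisons side by side sort the members into fixed groups of calls. The HD-Control libraries were lower than WT-Control and the HD-WNT5B libraries higher than HD-Control for 14 members: Kcna2, Kcna6, Kcnab2, Kcnc2, Kcnc4, Kcng1, Kcnh7, Kcnk1, Kcnk3, Kcnk4, Kcnk13, Kcnn1, Kcns3 and Kcnu1. The opposite pair of calls held for 6 members, among them Kcna1, Kcne4, Kcnh2, Kcnh5 and Kcnq5. Both calls were higher for 5 members, among them Kcna5, Kcnj4, Kcnk7 and Kcnt1. Both were lower for 16 members, among them Kcnab1, Kcnc1, Kcnd2, Kcnf1, Kcnh4, Kcnj3, Kcnj6, Kcnj9, Kcnj14, Kcnk9, Kcnma1, Kcnn2, Kcnq3, Kcnt2 and Kcnv1. A further 7 were called in the first comparison alone, as lower: Kcna4, Kcne1l, Kcnip2, Kcnip3, Kcnj16, Kcnk12 and Kcns2. In the second comparison alone, Kcng2, Kcnh3, Kcnip4, Kcnj8, Kcnk2, Kcnmb4, Kcnn4 and Kcns1 were higher (8 members) and Kcna3, Kcnb2, Kcnd3, Kcng3, Kcnh1, Kcnh6, Kcnj2, Kcnj5, Kcnj11, Kcnmb2 and Kcnn3 were lower (11 members). The other 12, among them Kcnab3, Kcnd1, Kcng4, Kcnh8, Kcnip1, Kcnj12, Kcnk5, Kcnk6, Kcnk10, Kcnmb1 and Kcnq1, were called in neither. With HD-Control in both comparisons, a high or low HD-Control value by itself gives opposite calls, so these counts are a description. Pairs of calls were not counted over all genes, of which 45.1% were called in the first and 77.5% in the second comparison. Whether the members' counts differ from those of other genes is therefore not known.

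**Figure D2:**
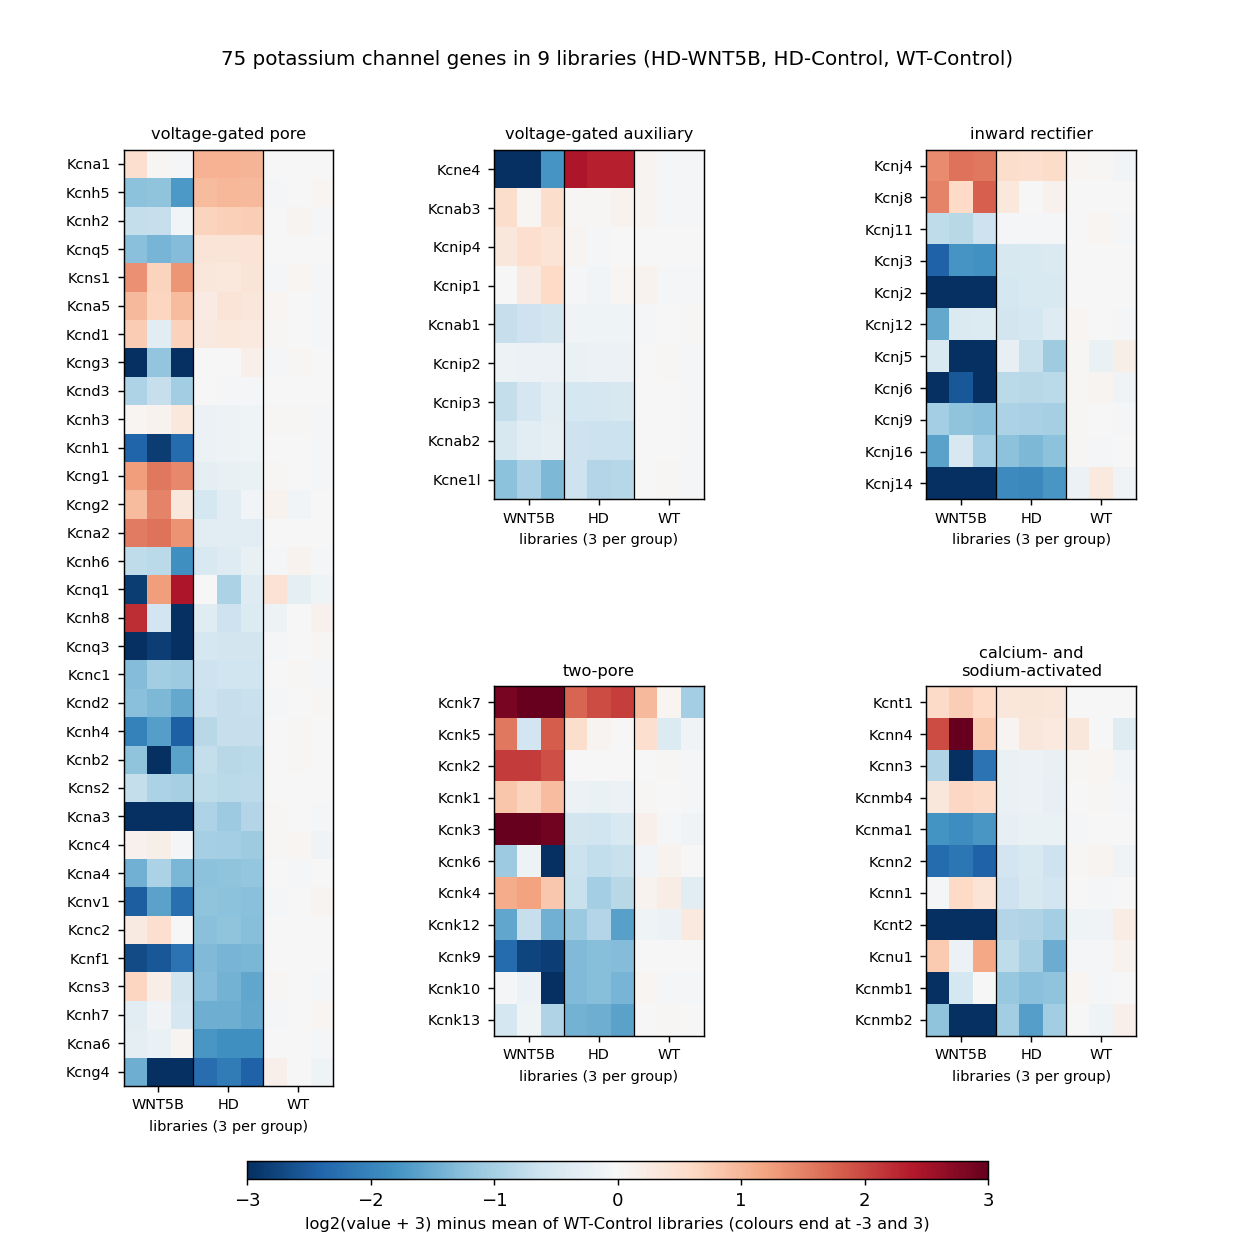
Colours give log2(value + 3) of each of 75 potassium channel genes in each of 9 libraries, minus the mean of the 3 WT-Control libraries, from blue (lower) through white to red (higher), ending at -3 and 3. Columns are the 3 HD-WNT5B, 3 HD-Control and 3 WT-Control libraries, rows are genes, and panels are classes. The HD-Control columns of a gene are nearly the same colour, while the HD-WNT5B columns differ among themselves for low genes such as Kcnq1, Kcnh8 and Kcnmb1.

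Voltage-gated pore subunits were the largest class, with 7 higher and 16 lower of 37 in HD-Control against WT-Control and 12 higher and 18 lower in HD-WNT5B against HD-Control. These were 18.9% and 43.2% of the class in the first comparison and 32.4% and 48.6% in the second. Of all genes tested, 24.5% and 20.7% were higher and lower in the first and 35.8% and 41.7% in the second. The same shares of all genes stand beside the class and list counts below. Class counts given with equal totals or the trend removed stand beside the shares of all genes given for those settings above. The class medians were -0.45 and -0.53. The second median turned to 0.11, with 13 higher and 12 lower, once a trend on transcript length and GC content was removed.

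The Kcna genes code for Kv1 channels, low-threshold delayed rectifiers of axons and nerve terminals that assemble as tetramers of mixed subunits. Kcna1 had 8439, 6112 and 5732 in HD-WNT5B, against 12303, 12195 and 12074 in HD-Control and 5986, 5952 and 5921 in WT-Control libraries. The HD-Control libraries were about level among themselves and all above those of both other groups. Kcna1 rose in HD-Control against WT-Control (log2 change 1.03, SE 0.12, limma adjusted p = 2.2e-04) and fell in HD-WNT5B against HD-Control (log2 change -0.87, SE 0.12, limma adjusted p = 1.8e-04). Between HD-WNT5B and WT-Control it was not called (log2 change 0.16, adjusted p = 0.25), but it was called lower there with equal totals (-0.42, adjusted p = 0.011) and higher with the length and GC trend removed (0.61, adjusted p = 8.3e-04).

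Kcna6, the next Kcna gene in the same cluster, went the other way. Its values were 4736, 4950.5 and 6024 in HD-WNT5B, against 1701, 1604 and 1589.6 in HD-Control and 5765, 5798 and 5613 in WT-Control libraries. The HD-Control libraries lay far under the others, and HD-WNT5B and WT-Control overlapped. It fell in HD-Control against WT-Control (log2 change -1.81, SE 0.08, limma adjusted p = 1.6e-06) and rose in HD-WNT5B against HD-Control (log2 change 1.67, SE 0.08, limma adjusted p = 1.9e-07). The cluster on chromosome 6 holds Kcna5 (chr6:126532551-126535412), Kcna1 (chr6:126640397-126646384) and Kcna6 (chr6:126708329-126740674), all on the minus strand of mm10, and 39.6% of the exon bases of Kcna6 are shared with exons of the annotated gene Gm26673. Strand is not kept by the kit, and reads from that overlap cannot be assigned between these genes. Kcna5, the last gene of the cluster, was called higher in both comparisons (0.32 and 0.53 on the log2 scale, adjusted p = 0.026 and 0.001). The first call did not hold without WT-Control library 2 or 3 or HD-Control library 2 or 3 (0.078 to 0.091), and with equal totals neither did (0.30 and -0.028, adjusted p = 0.0501 and 0.81).

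Kcna2, which codes for the Kv1 subunit most often found with the Kcna1 product on axons, had 64397, 68055 and 55842 in HD-WNT5B, against 17259, 17171 and 17483 in HD-Control and 21708, 21974 and 21906 in WT-Control libraries. HD-WNT5B libraries were over 2-fold above both other groups in each of the 3. Kcna2 fell in HD-Control against WT-Control (log2 change -0.34, SE 0.06, limma adjusted p = 0.0027) and rose in HD-WNT5B against HD-Control (log2 change 1.85, SE 0.06, limma adjusted p = 1.5e-08). Kcna4, an inactivating Kv1 subunit, had 1935, 2689 and 2001 in HD-WNT5B, against 2237, 2250.5 and 2321 in HD-Control and 5269.9, 5131 and 5267 in WT-Control libraries. It fell in HD-Control against WT-Control (log2 change -1.20, SE 0.11, limma adjusted p = 5.6e-05) and was not called in HD-WNT5B against HD-Control (-0.06, adjusted p = 0.67), where the libraries overlapped. In that comparison it was called lower with equal totals (-0.61, adjusted p = 4.9e-04) and upper-quartile factors (-0.44, adjusted p = 0.0035) and higher with the length and GC trend removed (0.82, adjusted p = 2.3e-04). Without HD-WNT5B library 2 it was also called lower (-0.21, limma adjusted p = 0.0013). Kcna3, a Kv1 gene also used by microglia and lymphocytes, had 25.04, 0 and 0 in HD-WNT5B and 147, 131 and 152 in HD-Control libraries and fell (6.4e-04 as limma adjusted p), with 2 libraries listed at 0.

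The make-up of the Kv1 pool changed with these genes. Per kilobase of the longest annotated transcript, Kcna1 made 18.2% of the summed Kcna level in HD-WNT5B, 51.7% in HD-Control and 24.7% in WT-Control libraries (means of 3). Kcna2 made 58.9%, 25.5% and 31.5%, and Kcna6 9.86%, 4.78% and 16.4%. The log2 ratio of Kcna1 to Kcna6, which no scaling of a library can change, was 0.83, 0.30 and -0.07 in HD-WNT5B, 2.86, 2.93 and 2.93 in HD-Control and 0.05, 0.04 and 0.08 in WT-Control libraries. This pair and the others given as ratios were picked after their values were seen, so no test is given. Of 8 genes that cluster Kv1 channels or form the juxtaparanode with them, 0 were higher and 5 lower in HD-Control against WT-Control, and 3 were higher and 5 lower in HD-WNT5B against HD-Control. Cntn2, an adhesion molecule of that axonal domain, fell in HD-Control (9409.8, 9753 and 9599, against 15045, 15395 and 14662 in WT-Control, log2 change -0.65, limma adjusted p = 1.5e-04). Lgi1, a secreted partner of the Adam22 and Adam23 products, rose in HD-WNT5B (13862, 12842 and 12926, against 5953, 5861 and 5871 in HD-Control, log2 change 1.16, limma adjusted p = 9.8e-09).

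**Figure D3:**
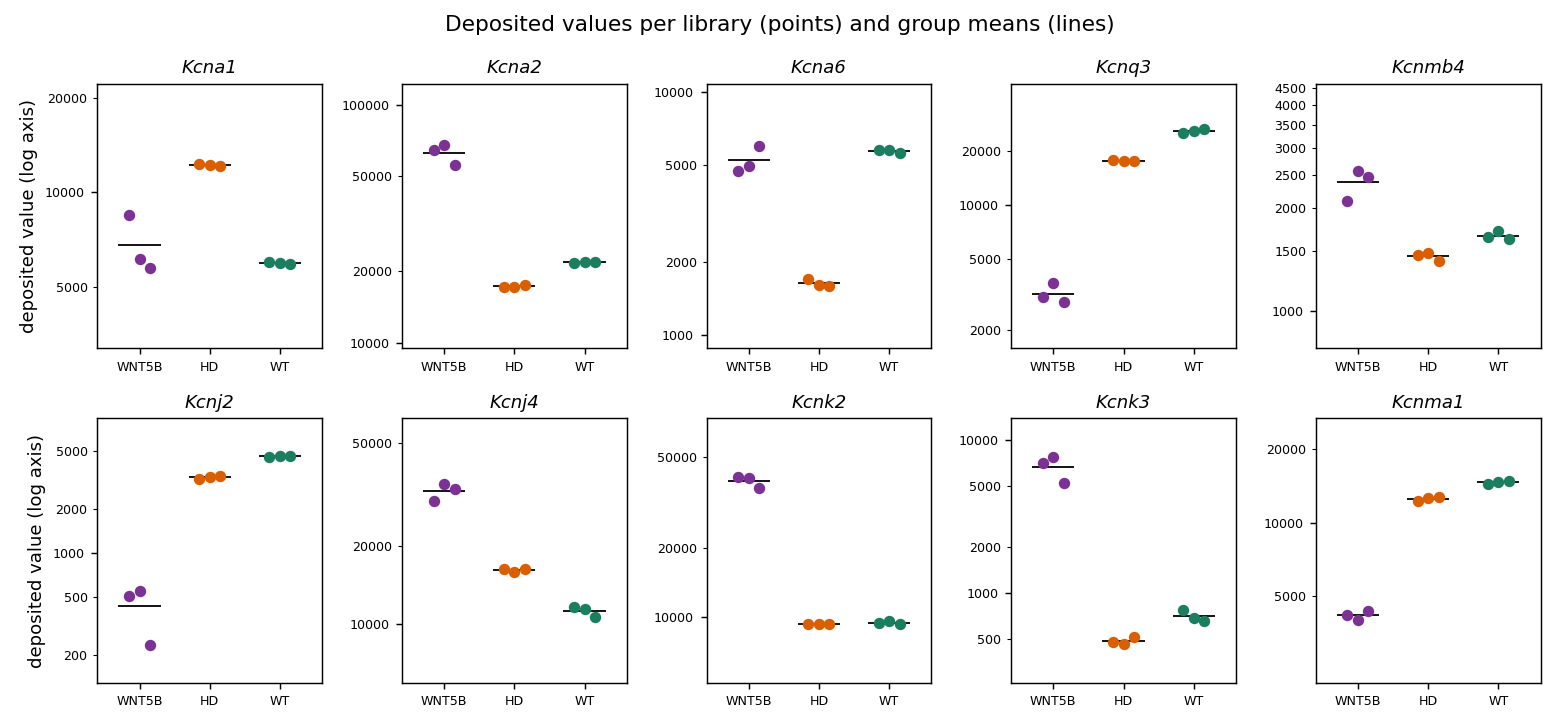
Points are the deposited values of 10 potassium channel genes in single libraries on a log axis, by group (HD-WNT5B, HD-Control, WT-Control, 3 libraries each), and lines are group means. Kcna1 is highest in HD-Control (mean 12191) and Kcna6 lowest there (mean 1631), Kcnq3 and Kcnj2 are lowest in HD-WNT5B, and Kcna2, Kcnmb4, Kcnj4, Kcnk2 and Kcnk3 are highest in HD-WNT5B.

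Kcnq genes code for Kv7 channels, which carry the M-current that dampens repetitive firing and closes when muscarinic receptors are active. Kcnq3 had 3055, 3667 and 2852 in HD-WNT5B, against 17882, 17600.5 and 17674 in HD-Control and 25322, 25899.8 and 26479.7 in WT-Control libraries. Its values were lowest in HD-WNT5B, intermediate in HD-Control and highest in WT-Control libraries, with no overlap. Kcnq3 fell in HD-Control (log2 change -0.55, SE 0.08, limma adjusted p = 6.9e-04) and further in HD-WNT5B (log2 change -2.48, SE 0.08, limma adjusted p = 1.1e-08). Kcnq5, another brain Kv7 gene, had 3484, 3164 and 3354 in HD-WNT5B, 10919.8, 10954 and 11091 in HD-Control and 8304, 8229 and 8455 in WT-Control libraries, so that its HD-Control values were the highest. It rose in HD-Control (0.40, adjusted p = 8.5e-05) and fell in HD-WNT5B (-1.72, adjusted p = 1.5e-09).

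Kcnd2, the Kv4 subunit of the somatodendritic A-type current, had 5813, 5429 and 4748 in HD-WNT5B, against 8887, 8617 and 8746 in HD-Control and 13577, 13663 and 14275 in WT-Control libraries. Kcnd2 fell in HD-Control (log2 change -0.66, SE 0.07, limma adjusted p = 9.3e-05) and again in HD-WNT5B (log2 change -0.72, SE 0.07, limma adjusted p = 1.2e-05), where the change turned to 0.24 without the trend on length and GC content. Of 3 partner genes of Kv4 and Kv2 channels, 0 were higher and 1 was lower in HD-Control against WT-Control, and 1 was higher and 2 were lower in HD-WNT5B against HD-Control. Amigo1, an adhesion protein of Kv2 channels, fell in both (-0.43 and -0.38, limma adjusted p = 4.9e-05 and 2.4e-05), with 3477, 3346 and 3210.2 in HD-WNT5B, 4319, 4378 and 4325 in HD-Control and 5846, 5809.7 and 5904 in WT-Control libraries.

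Kcnc genes code for Kv3 channels, which close fast and let neurons fire at high rates. Kcnc1 had 4205, 5008 and 4889 in HD-WNT5B, against 6798, 6809 and 6875 in HD-Control and 10420.2, 10645 and 10088 in WT-Control libraries. It was lowest in HD-WNT5B and highest in WT-Control without overlap, and it fell in both comparisons (-0.60 and -0.54, adjusted p = 1.1e-04 and 5.1e-05), though the second change was -0.10 and no longer called without the trend on length and GC content. Kcnc2 had 3500.4, 4120.0 and 2878 in HD-WNT5B, against 1201, 1243 and 1183 in HD-Control and 2903, 2889 and 2860.0 in WT-Control libraries. Its HD-Control libraries lay under all others, and it fell in HD-Control (-1.25, adjusted p = 4.7e-05) and rose in HD-WNT5B (1.52, adjusted p = 2.5e-06). Kcnc4 did the same (-1.02 and 1.11, adjusted p = 3.7e-05 and 3.9e-06). Markers of interneurons, the cells best known for Kv3 channels, were called 0 higher and 3 lower of 8 in HD-Control against WT-Control. In HD-WNT5B against HD-Control, 3 were higher and 4 lower. Their sums were 54701 to 59730 in HD-WNT5B, 67975 to 68590 in HD-Control and 77467 to 78333 in WT-Control libraries, with no marker at 0. Gad1 and Gad2 made most of each sum. Pvalb ran in another order than the sums, with 5269, 5980 and 4355 in HD-WNT5B libraries. Its values were 535, 505 and 501 in HD-Control and 1119, 1101 and 1095 in WT-Control libraries. The part of these markers was not tested.

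The ether-à-go-go genes Kcnh1 to Kcnh8 and the silent subunits of Kcnf, Kcng, Kcns and Kcnv, which form no channel alone and modify Kv2 channels, completed the class. Kcnh5 had 261, 262 and 184 in HD-WNT5B, against 1191, 1216 and 1206 in HD-Control and 588, 616 and 636 in WT-Control libraries. It rose in HD-Control (log2 change 0.97, SE 0.15, limma adjusted p = 9.3e-04) and fell in HD-WNT5B (log2 change -2.36, SE 0.15, limma adjusted p = 8.7e-07). Kcnh7, a gene of the Erg group, had 3334, 3868 and 2931 in HD-WNT5B, against 1488, 1501 and 1419 in HD-Control and 4011, 4081 and 4298 in WT-Control libraries. Its HD-Control libraries lay under all others, and it fell in HD-Control (log2 change -1.49, SE 0.09, limma adjusted p = 6.4e-06) and rose in HD-WNT5B (log2 change 1.19, SE 0.09, limma adjusted p = 3.4e-06). Kcnh2, which codes for another Erg channel, did the reverse (0.71 and -1.20, adjusted p = 0.0053 and 9.0e-05).

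Of the silent subunits, Kcng1 had 6223, 7692 and 6997 in HD-WNT5B, against 2119, 2221 and 2267 in HD-Control and 2669, 2604 and 2494 in WT-Control libraries and rose in HD-WNT5B against HD-Control (log2 change 1.66, SE 0.08, limma adjusted p = 1.0e-07). Kcnf1 and Kcnv1 fell in both comparisons. Kcnf1 values were 873, 965 and 1194 in HD-WNT5B, against 2219, 2123 and 2147 in HD-Control and 5600.0, 5639 and 5554 in WT-Control libraries. Its changes were -1.37 in HD-Control (adjusted p = 1.7e-05) and -1.11 in HD-WNT5B (adjusted p = 1.1e-05), and those of Kcnv1 were -1.24 and -0.88 (adjusted p = 8.4e-04 and 0.0024), the second turning to 0.086 without the trend on length and GC content. Cortical excitatory markers summed to 19377 to 21539 in HD-WNT5B, 11508 to 11618 in HD-Control and 25400 to 26214 in WT-Control libraries, and their part in these falls was not tested. Kcng3, of the same kind, fell in HD-WNT5B (7.15, 127 and 17.2, against 292, 294 and 328 in HD-Control, limma adjusted p = 0.0039), with 1 HD-WNT5B library well above the other 2.

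Among auxiliary subunits, 1 was higher and 5 were lower of 9 in HD-Control against WT-Control (median -0.13), and 2 were higher and 2 lower in HD-WNT5B against HD-Control (median 0.02), a balance that became 0 higher and 7 lower with equal totals and 4 higher and 2 lower with the length and GC trend removed. These were among the most abundant members per kilobase: Kcnip2 and Kcnab1 ranked 3 and 7 of 79 in HD-WNT5B, 2 and 3 in HD-Control and 1 and 2 in WT-Control. Kcnip2 codes for a calcium-binding partner of Kv4 channels. It had 18785, 18470.2 and 18528 in HD-WNT5B, against 18131, 18393 and 18482 in HD-Control and 21055, 21242 and 20349.7 in WT-Control libraries. It fell slightly in HD-Control (log2 change -0.19, SE 0.03, limma adjusted p = 6.3e-04), and HD-WNT5B against HD-Control gave a change of 0.02 (adjusted p = 0.51) with overlapping libraries, which became -0.53 and called with equal totals. Kcnab1 and Kcnab2 code for beta subunits of Kv1 channels. Kcnab2 had 13671, 14998 and 15600.5 in HD-WNT5B, against 12328, 12192 and 12174 in HD-Control and 19329, 19194 and 18756 in WT-Control libraries. Kcnab2 fell in HD-Control (log2 change -0.64, SE 0.05, limma adjusted p = 1.4e-05) and was called higher in HD-WNT5B (log2 change 0.27, SE 0.05, limma adjusted p = 6.8e-04), but lower with equal totals (-0.29) and upper-quartile factors (-0.12). Kcnab1 had 16809.9, 17701 and 18609 in HD-WNT5B, against 24978, 24586 and 24547 in HD-Control and 26464, 26934 and 27798 in WT-Control libraries. It fell in both (-0.13 and -0.48, adjusted p = 0.027 and 5.1e-06), but the first call did not hold without WT-Control library 2 or 3 or any 1 HD-Control library (0.061 to 0.099), and the second change turned to 0.35 without the trend on length and GC content.

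Kcne4, a single-pass subunit that inhibits several voltage-gated channels, had the largest rise of all 79 members in HD-Control against WT-Control, with 287, 265 and 267 in HD-Control and 54.2, 48.5 and 49.6 in WT-Control libraries (log2 change 2.36, SE 0.60, limma adjusted p = 0.012). With 1 as added constant this rise was no longer called (adjusted p = 0.066). In HD-WNT5B libraries its values were 0, 0 and 12.9, where 2 libraries were listed at 0, and it fell against HD-Control (limma adjusted p = 2.6e-05). Kcne1l, of the same family, fell in HD-Control (258, 216 and 219, against 400.5, 410.2 and 393 in WT-Control, log2 change -0.79, SE 0.17, limma adjusted p = 0.0047). Kcnip4 was called higher in HD-WNT5B (2706, 3065 and 2861, against 2286, 2096 and 2118 in HD-Control, log2 change 0.41, SE 0.06, limma adjusted p = 2.6e-04) and lower with equal totals (-0.15).

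Inward rectifier genes moved in both directions. Of 11, 1 was higher and 5 were lower in HD-Control against WT-Control (median -0.49), and 2 were higher and 7 lower in HD-WNT5B against HD-Control (median -0.68). The first pair was 9.09% and 45.5%, beside 24.5% and 20.7% of all genes. The second pair was 18.2% and 63.6%, beside 35.8% and 41.7%. Kcnj4 and Kcnj2 both code for Kir2 channels, the strong rectifiers of striatal projection neurons. Kcnj4 had 30032, 34738 and 33408 in HD-WNT5B, against 16307, 15844 and 16374 in HD-Control and 11614, 11434 and 10668 in WT-Control libraries. It was the highest in HD-WNT5B and the lowest in WT-Control with no overlap, and it rose in HD-Control (log2 change 0.53, SE 0.06, limma adjusted p = 1.3e-04) and again in HD-WNT5B (log2 change 1.01, SE 0.06, limma adjusted p = 3.6e-07). Kcnj2 had 509.8, 554 and 234 in HD-WNT5B, against 3205, 3329 and 3360.2 in HD-Control and 4528, 4618 and 4604 in WT-Control libraries. It ran in the opposite order. It was not called in HD-Control against WT-Control (log2 change -0.47, SE 0.28, limma adjusted p = 0.21), although the libraries did not overlap, and was called there when the HD-WNT5B scatter did not enter the fit (adjusted p = 2.6e-13 over those 2 groups alone). It fell in HD-WNT5B (log2 change -3.02, SE 0.28, limma adjusted p = 1.1e-05). The log2 ratio of Kcnj4 to Kcnj2 was 5.88, 5.97 and 7.16 in HD-WNT5B, 2.35, 2.25 and 2.28 in HD-Control and 1.36, 1.31 and 1.21 in WT-Control libraries. Per kilobase, Kcnj4 made 89.0% of the summed level of the 11 Kcnj members in HD-WNT5B, 71.0% in HD-Control and 54.5% in WT-Control libraries, with Kcnj10 and Kcnj13 not counted, and it ranked 1 of 79 members in HD-WNT5B, 1 in HD-Control and 4 in WT-Control. The promoters of both genes stand among the sequences printed above.

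Kcnj3, Kcnj6 and Kcnj9 code for the G protein-gated rectifiers through which GABA-B, muscarinic and opioid receptors hyperpolarise neurons. Kcnj9 had 2213, 1950.0 and 1874 in HD-WNT5B, against 2336, 2287 and 2247 in HD-Control and 4596, 4529.7 and 4351 in WT-Control libraries. It fell in HD-Control (log2 change -0.97, SE 0.07, limma adjusted p = 9.9e-06) and by a smaller step in HD-WNT5B (log2 change -0.19, SE 0.07, limma adjusted p = 0.027), a call that did not hold without any 1 HD-Control library (adjusted p = 0.051 to 0.081) or without HD-WNT5B library 2 or 3 (0.058 and 0.056). Kcnj3 had 526, 821 and 798 in HD-WNT5B, against 2023, 2057 and 2082 in HD-Control and 2809, 2799.9 and 2856 in WT-Control libraries. Kcnj3 fell in HD-WNT5B (log2 change -1.55, SE 0.15, limma adjusted p = 1.7e-05), and its fall in HD-Control (-0.46, adjusted p = 0.039) was not called without any 1 HD-Control or WT-Control library (0.091 to 0.10). Kcnj6 fell in both comparisons, with 37.6, 65.9 and 40.7 in HD-WNT5B, 227, 225 and 228 in HD-Control and 409, 422 and 372 in WT-Control libraries (-0.81 and -2.21, adjusted p = 0.021 and 2.7e-05), the first not called without any 1 HD-Control or WT-Control library (0.055 to 0.082). The HD-Control changes themselves moved little without any 1 library (-0.467 to -0.447 for Kcnj3 and -0.865 to -0.774 for Kcnj6). Both of these calls held when HD-Control and WT-Control libraries were fitted alone. Exon bases of Kcnj3 are shared with Gm26794 for 31.1% of their length.

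Kcnj8, the pore of the vascular ATP-sensitive channel and a gene of mural cells, had 612, 326 and 755 in HD-WNT5B, against 267, 213 and 234 in HD-Control and 213, 216 and 215 in WT-Control libraries. It rose in HD-WNT5B against HD-Control (log2 change 1.16, SE 0.29, limma adjusted p = 0.0057), though not with equal totals (0.61, adjusted p = 0.091). Of 8 endothelial and mural markers, 4 were higher (Cldn5, Flt1, Kdr and Vtn) and 4 lower (Rgs5, Pdgfrb, Pecam1 and Abcc9) in that comparison. Their sum was 44228 to 53510 in HD-WNT5B, 15777 to 15921 in HD-Control and 22249 to 22549 in WT-Control libraries. Of the HD-WNT5B sums, Cldn5 alone made 30899, 29359 and 26434, against 1646, 1673 and 1718 in HD-Control. Rgs5 and Pdgfrb had log2 changes of -1.93 and -1.87, and Vtn had 1.10. Abcc9, a marker of that list and the receptor subunit that pairs with the Kcnj8 product, was at 91.2, 0 and 112 in HD-WNT5B and 682, 689 and 636 in HD-Control libraries. The part of the markers was not tested. Of the 2 sulfonylurea receptor genes, 0 were called in HD-Control against WT-Control, and 0 were higher and 1, Abcc9, lower in HD-WNT5B against HD-Control (limma adjusted p = 0.0088). Kcnj16, which pairs with Kir4.1 in astrocytes, fell in HD-Control (321, 296 and 324, against 776, 737 and 772 in WT-Control, log2 change -1.27, SE 0.25, limma adjusted p = 0.0035) beside 6 of 8 astrocyte markers that were lower and 1 that was higher (summed values 241312 to 242834 in HD-Control and 367729 to 372223 in WT-Control, none at 0), and their part was not tested.

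**Figure D4:**
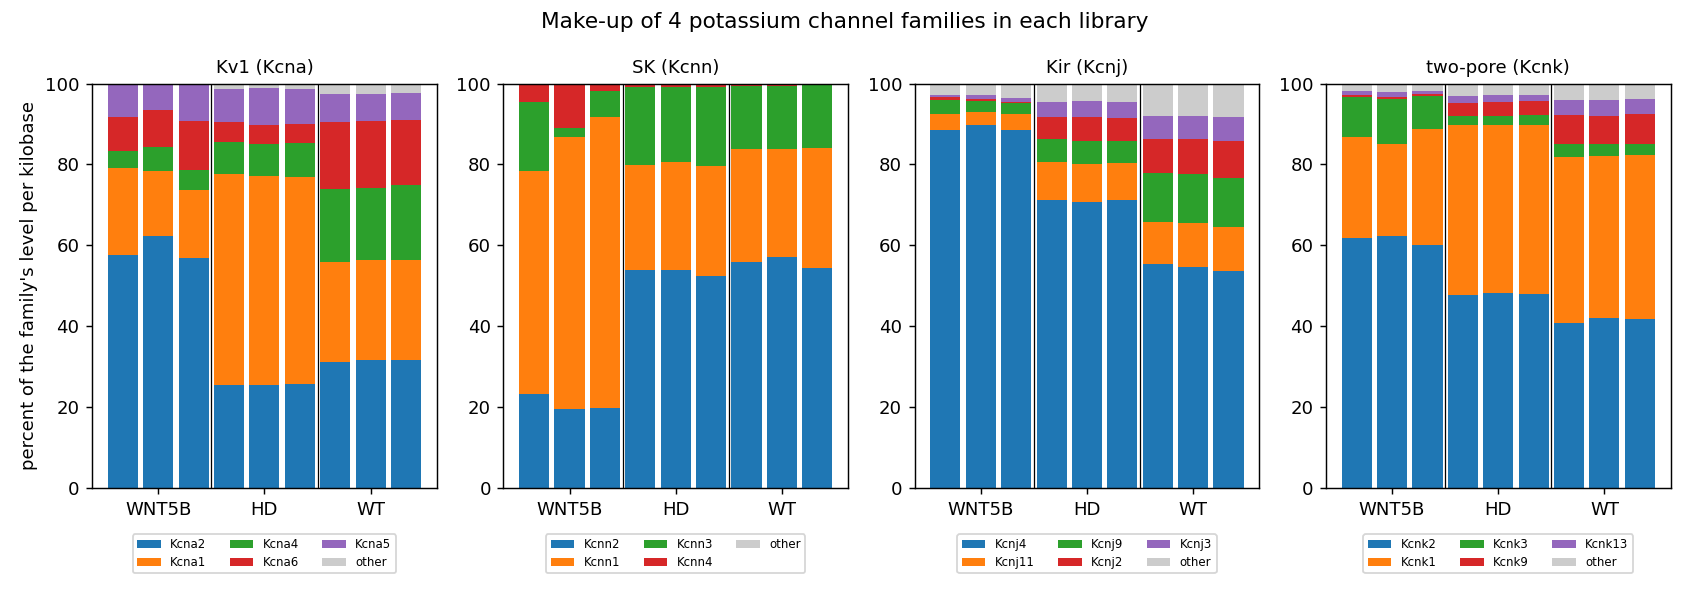
Bars give the percent of a family's summed level per kilobase of longest transcript that each gene makes in each of 9 libraries (3 HD-WNT5B, 3 HD-Control and 3 WT-Control), for the Kcna, Kcnn, Kcnj (without Kcnj10 and Kcnj13) and Kcnk genes. Each bar adds to 100. Kcna1 makes 51.7% of the Kcna level in HD-Control, and Kcnj4 makes 89.0% of the Kcnj level in HD-WNT5B and 54.5% in WT-Control.

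Two-pore channels mostly rose or were not called in HD-WNT5B. There, 6 were higher and 1 was lower of 11 against HD-Control (median 0.98), with 4 higher and 1 lower under equal totals and 5 higher and 1 lower under upper-quartile factors. With the length and GC trend removed, the rises of Kcnk1, Kcnk2 and Kcnk3 stayed called. That of Kcnk7 was lost (0.25, limma adjusted p = 0.69), and the fall of Kcnk9 shrank to -0.22. In HD-Control against WT-Control, 1 was higher and 6 were lower (median -0.68). Per kilobase the class made 20.1% to 22.2% of the summed level of all members in HD-WNT5B, 7.997% to 8.034% in HD-Control and 8.22% to 8.38% in WT-Control libraries. Kcnk2 codes for TREK-1, a leak channel gated by stretch, lipids and temperature. It had 40853, 40431 and 36523 in HD-WNT5B, against 9347, 9403 and 9400.2 in HD-Control and 9497, 9656 and 9337 in WT-Control libraries. The HD-WNT5B libraries were each over 3-fold above every other library, and Kcnk2 rose there (log2 change 2.06, SE 0.04, limma adjusted p = 9.2e-10) but was not called in HD-Control against WT-Control (-0.02, adjusted p = 0.79).

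Kcnk3 codes for TASK-1, an acid-sensitive leak channel, and Kcnk9 for its close relative TASK-3. Kcnk3 had 7109.9, 7734 and 5275 in HD-WNT5B, against 477, 463 and 510.4 in HD-Control and 778, 684 and 655 in WT-Control libraries. Kcnk3 fell in HD-Control (log2 change -0.54, SE 0.14, limma adjusted p = 0.014) and had the largest rise of all 79 members in HD-WNT5B against HD-Control (log2 change 3.77, SE 0.14, limma adjusted p = 2.9e-08). Kcnk9 had 1154, 846 and 796 in HD-WNT5B, against 2260.2, 2339.7 and 2301 in HD-Control and 5713, 5651 and 5689 in WT-Control libraries. It fell at both steps (-1.30 and -1.32, adjusted p = 5.9e-05 and 1.1e-05), so that these related genes moved in opposite directions in HD-WNT5B. The log2 ratio of Kcnk2 to Kcnk9 was 5.15 to 5.58 in HD-WNT5B, 2.01 to 2.05 in HD-Control and 0.71 to 0.77 in WT-Control libraries.

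Kcnk1, which codes for TWIK-1, had 10342, 9268 and 10973 in HD-WNT5B, against 5142, 5067 and 5143 in HD-Control and 5960.3, 5803 and 5697 in WT-Control libraries. It rose in HD-WNT5B (log2 change 0.99, SE 0.06, limma adjusted p = 5.1e-07), and its small fall in HD-Control (-0.19, adjusted p = 0.031) was not called without any 1 HD-Control or WT-Control library (0.059 to 0.10). That fall was -0.201 to -0.168 without any 1 library, and its call held when HD-Control and WT-Control libraries were fitted alone. Kcnk13, the THIK-1 channel of microglia, had 515, 684 and 399 in HD-WNT5B, against 278, 268 and 242 in HD-Control and 747, 759 and 735 in WT-Control libraries. Kcnk13 fell in HD-Control (log2 change -1.50, SE 0.19, limma adjusted p = 3.2e-04) and rose in HD-WNT5B (log2 change 0.98, SE 0.19, limma adjusted p = 0.0014). Microglia markers moved the same way in both comparisons: 8 of 8 were lower in HD-Control against WT-Control, 5 of 8 were higher and 0 lower in HD-WNT5B against HD-Control, and their sums were 39202 to 43780 in HD-WNT5B, 10796 to 10838 in HD-Control and 27149 to 27439 in WT-Control libraries, with no marker at 0. Of the HD-WNT5B sums, Cx3cr1 alone made 20611, 21166 and 18043. In HD-WNT5B against WT-Control, Kcnk13 was called lower (-0.52, limma adjusted p = 0.034), a call lost without any 1 WT-Control library (0.078 to 0.089). It was also lost without HD-Control library 1 or 2 or HD-WNT5B library 1 or 3 (0.051 to 0.056). Nor did it hold with a weight per group (0.15), with those groups alone (0.074) or relative to the median of all genes (0.064). In the same comparison 3 of 8 microglia markers were higher and 5 lower, although their sum was higher. Their part in the Kcnk13 values was not tested. Kcnk7 was called higher in both comparisons at low values (51.9, 73.9 and 146 in HD-WNT5B, 22.3, 26.5 and 28.9 in HD-Control and 11.96, 4.85 and 0.73 in WT-Control libraries), and neither call held without any 1 HD-Control library (0.051 to 0.080), nor the first without WT-Control library 2 or 3 (0.059 and 0.070), nor the second without HD-WNT5B library 3 (0.084). The second was also lost with equal totals (adjusted p = 0.12), upper-quartile factors (0.080) and the length and GC trend removed (0.69).

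Calcium- and sodium-activated channel genes were 1 higher and 5 lower of 11 in HD-Control against WT-Control (median -0.55), and 5 higher and 5 lower in HD-WNT5B against HD-Control (median -0.56), or 1 higher and 6 lower there with equal totals (median -0.97) and 5 higher and 3 lower with the length and GC trend removed (median 0.11). The reported counts were 9.09% and 45.5%, beside 24.5% and 20.7% of all genes, in the first comparison. In the second they were 45.5% and 45.5%, beside 35.8% and 41.7%. Kcnma1 codes for the pore of the BK channel, which couples calcium entry to fast repolarisation. It had 4178, 3979 and 4359.6 in HD-WNT5B, against 12274, 12638 and 12683 in HD-Control and 14333, 14630.1 and 14825 in WT-Control libraries. It was lowest in HD-WNT5B without overlap, and it fell in HD-Control (log2 change -0.22, SE 0.04, limma adjusted p = 0.002) and in HD-WNT5B (log2 change -1.59, SE 0.04, limma adjusted p = 2.2e-09). The first call did not hold with the length and GC trend removed (-0.17, adjusted p = 0.11). Kcnmb4, the neuronal beta subunit of that channel, had 2103, 2567 and 2472 in HD-WNT5B, against 1457, 1475 and 1404 in HD-Control and 1651, 1709.6 and 1622 in WT-Control libraries. It rose in HD-WNT5B (log2 change 0.71, SE 0.08, limma adjusted p = 3.9e-05), but not with equal totals (0.16, adjusted p = 0.093), and 31.5% of its exon bases are shared with the annotated transcripts Kcnmb4os1 and Kcnmb4os2. The log2 ratio of Kcnma1 to Kcnmb4 was 0.99, 0.63 and 0.82 in HD-WNT5B, 3.07, 3.10 and 3.18 in HD-Control and 3.12, 3.10 and 3.19 in WT-Control libraries. Of 4 gamma subunit genes of the BK channel 2 were tested. Lrrc55 fell in both comparisons, with 295, 125 and 270.2 in HD-WNT5B, 379, 368 and 368 in HD-Control and 1675, 1776 and 1661 in WT-Control libraries (-2.19 and -0.78, limma adjusted p = 3.7e-04 and 0.035), and the other was not called.

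Kcnn genes code for SK channels, voltage-independent channels that carry an afterhyperpolarisation and sense calcium through bound calmodulin. Kcnn2 had 272, 300.4 and 249 in HD-WNT5B, against 909.6, 976 and 877 in HD-Control and 1379, 1418 and 1258 in WT-Control libraries. It fell in both comparisons (-0.55 and -1.74, adjusted p = 0.0035 and 7.8e-07). Kcnn3, an SK gene of dopamine neurons and astrocytes, had 456, 73.9 and 182 in HD-WNT5B, against 742, 756 and 739 in HD-Control and 872, 888 and 812 in WT-Control libraries. The HD-WNT5B libraries scattered widely but lay under all others, and Kcnn3 fell there (log2 change -2.001, SE 0.53, limma adjusted p = 0.0076), though not with the length and GC trend removed (-0.797, adjusted p = 0.19). Kcnn1 fell in HD-Control and rose in HD-WNT5B (-0.56 and 0.87, adjusted p = 0.023 and 0.0011), the second not called with equal totals (0.32, adjusted p = 0.095), and per kilobase it made 64.8% of the Kcnn level in HD-WNT5B, 26.7% in HD-Control and 28.1% in WT-Control libraries.

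Kcnt1 codes for Slack, the sodium-activated channel, and Kcnt2 for its relative Slick. Kcnt1 had 26540.2, 29786 and 27189 in HD-WNT5B, against 22487, 22932 and 22762 in HD-Control and 17961, 18002 and 17761 in WT-Control libraries. It rose in HD-Control (log2 change 0.34, SE 0.04, limma adjusted p = 2.6e-04) and was called higher in HD-WNT5B (log2 change 0.29, SE 0.04, limma adjusted p = 2.2e-04) but lower with equal totals (-0.26) and upper-quartile factors (-0.09). Kcnt2 had 66.2, 27.3 and 66.5 in HD-WNT5B, against 464, 459 and 417 in HD-Control and 785, 798 and 995 in WT-Control libraries. It fell in HD-WNT5B (log2 change -3.09, SE 0.32, limma adjusted p = 2.2e-05), and its fall in HD-Control (-0.93, adjusted p = 0.042) was not called without any 1 HD-Control or WT-Control library (0.088 to 0.14). Kcnu1, a relative of Kcnma1 known from sperm, had 243, 125 and 319.5 in HD-WNT5B, against 82.1, 68.6 and 48.6 in HD-Control and 137, 135 and 152 in WT-Control libraries. It fell in HD-Control and rose in HD-WNT5B (-1.08 and 1.67, adjusted p = 0.038 and 0.0024), the first call not holding without any 1 HD-Control or WT-Control library (0.054 to 0.13). Without any 1 library, the HD-Control against WT-Control change was -0.994 to -0.824 for Kcnt2 and -1.243 to -0.882 for Kcnu1. Both of these calls held when HD-Control and WT-Control libraries were fitted alone.

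Other genes that move potassium or act beside these channels were counted by list. Beside these counts, 24.5% and 20.7% of all genes were higher and lower in HD-Control against WT-Control. The shares were 35.8% and 41.7% in HD-WNT5B against HD-Control. HCN channels carry the hyperpolarisation-activated cation current that opposes inward rectifiers at rest, and of 4 such genes and their partner Pex5l, 5 in all, 0 were higher and 3 lower in HD-Control against WT-Control and 1 was higher and 4 were lower in HD-WNT5B against HD-Control. Hcn2 had 14043, 13727 and 13719.9 in HD-WNT5B, 6188, 6262 and 6498 in HD-Control and 8951, 8865 and 8535 in WT-Control libraries, and it fell in HD-Control (-0.48, limma adjusted p = 1.2e-05) and rose in HD-WNT5B (1.13, adjusted p = 6.3e-09). The sodium-potassium pump returns the potassium that these channels release. Of 8 pump genes, 1 was higher and 5 were lower in HD-Control against WT-Control, and 5 were higher and 2 lower in HD-WNT5B against HD-Control. Atp1b2, a glial beta subunit, had 3719, 3434 and 3247 in HD-WNT5B, 14542, 14749 and 15056 in HD-Control and 22085, 22263 and 21576 in WT-Control libraries. It fell in HD-Control (-0.57, limma adjusted p = 3.4e-05) and further in HD-WNT5B (-2.09, adjusted p = 1.5e-09). Of 5 cation-chloride cotransporter genes, 0 were higher and 2 lower in HD-Control against WT-Control and 1 was higher and 2 lower in HD-WNT5B against HD-Control. Slc12a5, the neuronal potassium-chloride exporter, had 12719, 12299 and 12841 in HD-WNT5B, 34768, 34971 and 35083 in HD-Control and 41592, 40867 and 39335 in WT-Control libraries and fell in both comparisons (limma adjusted p = 5.6e-04 and 8.0e-10).

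Transcript length moved with the HD-WNT5B result. Among the 40 members with longest transcripts up to the median of 3922 bases, 19 were higher and 10 lower in HD-WNT5B against HD-Control (median 0.31), and among the 39 longer ones 8 were higher and 23 lower (median -0.74). All genes split at the same length gave medians of 0.22 and -0.80. In HD-Control against WT-Control the median was -0.47 among the shorter and -0.47 among the longer members. Of the examples above, Kcnj4 and Kcnk2 have short and Kcnq3 and Kcnd2 long transcripts, but Kcna2, at 11582 bases, rose in HD-WNT5B and Kcnj11, at 3142 bases, fell (-0.68, adjusted p = 6.7e-06). With the length and GC trend removed, the HD-WNT5B against HD-Control changes of several genes above stayed called at another size. They were -0.45 for Kcna1, -1.21 for Kcnq3, -0.72 for Kcnq5, -1.88 for Kcnj2, 0.43 for Kcnj4, -0.56 for Kcnj3, -0.36 for Kcnma1, -1.68 for Kcnt2 and -0.22 for Kcnk9, each smaller, and 3.06 for Kcna2, 2.39 for Kcnc2, 0.99 for Kcnip4 and 0.78 for Kcnt1, each larger. With equal totals, Kcnj4 (0.46), Kcnk1 (0.44), Kcnc2 (0.96) and Kcnc4 (0.56) stayed called as higher by smaller changes. The part of length in these changes was not tested gene by gene. Markers of choroid plexus and ependyma also stood apart in HD-WNT5B, with summed values of 14265 to 17080, against 1739 to 1788 in HD-Control and 1634 to 1728 in WT-Control libraries, 4 of 6 called higher and 2 lower against HD-Control, and Aqp1 at 0 in 2 HD-WNT5B libraries. Their part in the values of the members was not tested.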

How the data were processed

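Poly(A)-selected total RNA of 9 mouse brain libraries (3 per group, with groups and replicate numbers taken from the labels) was sequenced from a kit that does not mark strand, per the labels. Reads were aligned with STAR to mm10, per the submitters' processing notes. The deposited values are a signal made by the authors: estimated read counts per gene divided by 1 factor per library and not by gene length, as the values themselves show. Which program counted and normalised them, and its version, is not given in the sources used here. A count model was not used, since the values are not whole reads.

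Ensembl identifiers were joined to GENCODE M21 symbols, transcript lengths and positions. The fit held 15411 of 21853 genes, those reaching 10 in 3 or more libraries, and was made with limma 3.58.1 in R 4.3.3 on log2(value + 3), with group means over all 9 libraries (6 residual degrees of freedom), a mean-variance trend and Benjamini-Hochberg adjustment over all genes tested. A gene was called at an adjusted p under 0.05. Fold changes on this scale understate those of low genes. Every adjusted p in the text is limma's. Levels per kilobase divide a value by the longest transcript. Reads per library were estimated from the step between low values, which is their precision.

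The members and all lists (11 marker and 7 partner lists) were chosen with earlier results of these data known. Some results are not reported here by name. Named members were 20 with known roles in excitability plus, per class and comparison, up to 2 rises and 2 falls with a mean of at least 100. Others were named after their values were seen. Promoters came from RefSeq. Alternatives were other scalings, filters, added constants, spreads, a replicate block, removal of a trend on length and GC content, and leaving out each library.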

Additional observations from a re-analysis of the deposited data

How the results depend on the processing

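Of the values of named genes under the alternatives, 2318 kept their direction and side of the threshold, 102 lost a call, 18 gained one and 24 turned. With equal totals, 13 members were higher than in HD-Control and 10 higher than in WT-Control, against 27 and 18 as reported. Of all genes, 25.9% were higher with equal totals in each comparison, against 35.8% and 35.9% as reported. The share of higher among called genes in HD-WNT5B against HD-Control was 46.19% as reported, 32.17% with equal totals, 36.21% with upper-quartile factors and 55.75% with the length and GC trend removed. In HD-Control against WT-Control, 6957 genes were called, against 12779 with a weight per group and 12908 with those groups alone (13 members higher and 55 lower with a weight per group). Calls there for Kcna5, Kcnab1, Kcnj3, Kcnj6, Kcnk1, Kcnk7, Kcnt2 and Kcnu1 were lost on leaving out single libraries. All of them held in both of these fits. The HD-WNT5B comparisons had fewer calls in such fits. With a weight per group, 23 members were higher and 31 lower against HD-Control (10797 of all genes called). Against WT-Control, 13 were higher and 40 lower (10960). With only the groups compared, these were 26 and 28 (11074) and 16 and 42 (11188). The weight ended the calls of Kcnj9, Kcnu1 and Kcnk7 against HD-Control (limma adjusted p = 0.20, 0.053 and 0.38). It also ended those of Kcnip2 and Kcnk13 against WT-Control (0.069 and 0.15). With equal totals, changes in HD-WNT5B against HD-Control turned to -0.26 for Kcnt1, -0.53 for Kcnip2, -0.15 for Kcnip4, -0.29 for Kcnab2 and -0.0284 for Kcna5, and against WT-Control to -0.42 (called) for Kcna1, -0.066 for Kcnmb4 and -0.16 for Kcnip4. Upper-quartile factors gave -0.093 for Kcnt1, -0.36 for Kcnip2 and -0.12 for Kcnab2 against HD-Control and -0.27 for Kcna1 and -0.0198 for Kcnip4 against WT-Control. With the length and GC trend removed, HD-WNT5B against HD-Control gave 0.82 (called) for Kcna4, 0.24 for Kcnd2, -0.0216 for Kcnip2, 0.0858 for Kcnv1 and 0.35 for Kcnab1, HD-WNT5B against WT-Control gave 0.22 for Kcnab1, and HD-Control against WT-Control gave 0.0017 for Kcnk2. Kcna4 in HD-WNT5B against HD-Control ranged from -0.2053 (called, without library 2) to 0.0316 without any 1 HD-WNT5B library and was 0.0429 relative to the median of all genes. Kcna1 against WT-Control ranged from -0.0083 to 0.2706 without any 1 library. The causes of these turns were not tested. Without any 1 library, members higher and lower ranged from 7 to 13 and 26 to 45 in HD-Control against WT-Control (all genes 5512 to 8954), 25 to 32 and 28 to 35 in HD-WNT5B against HD-Control (11156 to 12587), and 16 to 21 and 41 to 44 in HD-WNT5B against WT-Control (11286 to 12676). Libraries of the same number did not deviate together (correlations from -0.08 to 0.02). These correlations cannot show whether the numbers pair libraries, and the labels do not say what the numbers mean. With a replicate block, 8 members were higher and 34 lower in HD-Control against WT-Control (6402 of all genes), 27 and 32 in HD-WNT5B against HD-Control (11782), and 18 and 44 in HD-WNT5B against WT-Control (11891). The block ended the calls of Kcnt2, Kcnu1 and Kcnk7 in HD-Control against WT-Control and of Kcnk7 in HD-WNT5B against HD-Control. The mean minimum of 100 and the centring on the median were added after seeing the data, and the tests planned on recovered reads were not run. HD-WNT5B libraries were the shallowest, and 4 to 6 members were listed at 0 there, so low members such as Kcnq1, Kcnh8 and Kcnmb1 could not be resolved.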
